A study of Mus musculus with 8 samples.

Results

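The proteasome genes described here were chosen by name. Of 18193 mouse genes on the arrays with a probe set annotated to a single symbol, 49 had a symbol that began with Psma, Psmb, Psmc, Psmd, Psme, Psmf or Psmg followed by a number. Each gene was represented by the probe set with its highest mean over the 8 arrays, out of 103 probe sets in all. The inducible genes Psmb8, Psmb9, Psmb10 and Psme1 were set against the remaining genes. Psme2, the fifth gene of the inducible set, was measured only by a probe set annotated to both Psme2 and its relative Psme2b, so its values are given as a description and it is not counted. Of the 49 genes, 47 passed the filter on low values and were tested. Psma8, a testis form of an alpha subunit, stood between 2.38 and 2.79 on the log2 scale over the 8 arrays, and Psmb11, the beta subunit of the thymus cortex, between 2.29 and 2.51. Both lay below the filter, so no level is claimed for them. Psmc3ip and Psme3ip1 matched the naming rule but encode partners of subunits rather than subunits; they are reported and kept apart, which left 41 other proteasome genes to set beside the 4 inducible ones.

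The proteasome degrades ubiquitin-tagged proteins. Its barrel, the 20S core, is built from alpha rings that form the gate and beta rings that hold the peptide-cutting subunits Psmb5, Psmb6 and Psmb7, and the 19S cap on its ends binds ubiquitin chains, unfolds the protein with ATPase subunits and feeds it in. Interferon gamma and other inflammatory signals induce Psmb8, Psmb9 and Psmb10, which replace Psmb5, Psmb6 and Psmb7 in newly assembled cores to form the immunoproteasome, and Psme1 and Psme2, which form the PA28 cap. The immunoproteasome is abundant in lymphocytes and alters the peptides loaded on MHC class I molecules.

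Messenger RNA was measured on Affymetrix arrays in 4 groups of 2 arrays. The Tfh (follicular helper) group held CD4+ CXCR5+ cells sorted from spleens of C57BL/6 mice 7 days after these had received keyhole limpet haemocyanin (KLH), and restimulated in vitro for 4 h with anti-CD3. The other groups were naive CD4 T cells from spleen and lymph node of OT-II mice, which carry a transgenic T cell receptor for an ovalbumin peptide on the C57BL/6 background and were 6 to 8 weeks old. These cells spent 5 days with OT-II peptide and antigen-presenting cells (APC), without a stated later restimulation. Th1 cultures received 10 ng/ml IL-12 and anti-IL-4. Th2 cultures received 10 ng/ml IL-4 and anti-IFNg. Th17 cultures received 20 ng/ml IL-6, TGFb, anti-IL-4 and anti-IFNg. Antibody to interferon gamma was therefore present in the Th2 and Th17 cultures and not listed for Th1. Mouse age was not stated for Tfh. Tfh differed from the cultured types in source, T cell receptor, time since activation and restimulation at once, and these cannot be told apart. The labels do not say whether the 2 arrays of a group came from separate mice or cultures, so p-values may measure technical spread only.

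Features of the arrays bear on every comparison with Tfh. The 65th percentile of all probe sets was 6.91 and 6.98 in Tfh, against 5.23 to 5.31 in the cultured arrays, and the median tested gene differed by 0.84 log2 units between Tfh and the cultured mean, higher in Tfh. Differences are given as deposited and, for the inducible genes and Psme4, also relative to that median gene. The Tfh arrays differed from each other by over 1 log2 unit at 11 tested genes; the number was 1435 for the Th1 arrays, 696 for those of Th2 and 1339 for those of Th17. Among defining genes of the labelled types, Cxcr5, Bcl6 and Pdcd1 were called higher in Tfh, Ifng was highest in Th1, Il5 in Th2 and Il17a in Th17. The Th1 factor Tbx21 averaged 10.6 in Tfh and 10.2 in Th1, and the Th2 factor Gata3 averaged 10.6 in Tfh and 10.8 in Th2. Of 6 T cell genes, Cd3e (2.67), Cd4 (2.52) and Cd3g (1.12) were called higher in Tfh against the cultured mean, beside 43.7% of all tested genes. Cd3d, Cd28 and Cd2 were not called. Cd3e and Cd4 were also called after arrays were shifted to a common median and after quantile normalization. Markers of other cells were also present. For the 8 neutrophil genes, most of which passed the filter through the Tfh arrays, the log2 of the summed level was 16.1 and 16.1 in Tfh, against 5.44 to 11.9 in the cultured arrays. The same sum for macrophage and dendritic cell genes was 11.7 and 11.6 in Tfh, 5.82 and 6.87 in Th1, 11.4 and 8.40 in Th2 and 10.1 and 8.21 in Th17. In Tfh most of it was Lyz2 (11.42 and 11.31). Itgax (2.49 and 2.48) and Mrc1 (2.89 and 2.86) lay below the filter in Tfh and passed it only through cultured arrays. Both were called lower in Tfh against the cultured mean (-1.84 for Itgax and -2.31 for Mrc1). As the Tfh values lay below the filter, the sizes of these differences are uncertain. Itgax overlapped between Tfh and Th1. For B cell genes it was 9.91 and 9.93 in Tfh, 5.88 and 7.38 in Th1, 8.08 and 9.73 in Th2 and 8.98 and 7.21 in Th17; the B cell factor Pax5 lay below the filter. For CD8 and NK cell genes it was 8.75 and 8.81 in Tfh, 11.6 and 10.4 in Th1, 8.81 and 7.55 in Th2 and 7.06 and 9.58 in Th17. The part of these cells in the values below was not tested. In such bulk samples, fewer cells of a type and less RNA per cell cannot be told apart.

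The promoters of 4 genes are printed because their transcripts make up the contrast that follows: Psmb9 and Psme1 with the clearest differences among the inducible genes, Psmb8 with none called, and Psmb5, the constitutive subunit that Psmb8 replaces. Each window holds 250 bases before and 50 bases after the annotated start in RefSeq on GRCm38.p6, written 5′ to 3′ along the gene's strand. They lie at chr17:34187281-34187580 on the minus strand for Psmb9, chr14:55578244-55578543 on the plus strand for Psme1, chr17:34197945-34198244 on the plus strand for Psmb8 and chr14:54617946-54618245 on the minus strand for Psmb5. Capitals mark matches, on either strand, to the motifs given in the next paragraph.
Psmb9: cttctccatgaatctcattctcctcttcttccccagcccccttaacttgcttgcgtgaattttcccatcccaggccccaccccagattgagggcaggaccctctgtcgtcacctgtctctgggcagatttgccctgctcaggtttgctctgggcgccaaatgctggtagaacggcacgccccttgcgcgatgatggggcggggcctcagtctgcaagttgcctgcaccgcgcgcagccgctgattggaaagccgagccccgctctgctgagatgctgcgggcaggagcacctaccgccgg
Psme1: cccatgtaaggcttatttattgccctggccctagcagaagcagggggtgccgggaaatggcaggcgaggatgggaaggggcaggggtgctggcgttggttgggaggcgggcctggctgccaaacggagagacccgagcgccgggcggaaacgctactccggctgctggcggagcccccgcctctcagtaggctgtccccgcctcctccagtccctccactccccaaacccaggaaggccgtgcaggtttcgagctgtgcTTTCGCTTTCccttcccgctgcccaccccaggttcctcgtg
Psmb8: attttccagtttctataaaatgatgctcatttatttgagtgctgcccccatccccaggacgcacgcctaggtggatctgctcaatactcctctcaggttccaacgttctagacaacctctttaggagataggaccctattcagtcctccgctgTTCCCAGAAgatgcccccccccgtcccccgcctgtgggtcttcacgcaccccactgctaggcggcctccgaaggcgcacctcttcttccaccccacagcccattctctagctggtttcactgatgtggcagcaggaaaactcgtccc
Psmb5: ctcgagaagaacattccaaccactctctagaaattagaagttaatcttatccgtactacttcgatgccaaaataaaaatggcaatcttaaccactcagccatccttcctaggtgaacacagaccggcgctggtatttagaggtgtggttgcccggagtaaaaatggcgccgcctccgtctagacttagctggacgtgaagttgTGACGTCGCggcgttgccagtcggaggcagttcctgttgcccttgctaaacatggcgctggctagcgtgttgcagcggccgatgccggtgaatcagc

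A window was found for 41 of the 49 genes. The interferon regulatory factor element was searched as GAAANNGAAA on both strands. A window held it for 5 of the 41 genes, Psmb3, Psmd4, Psmd9, Psme1 and Psmg4, and for 3.99% of 27025 mouse genes. The STAT element, searched as TTCNNNGAA, was found for 3 of the 41, Psmb8, Psmd2 and Psmg1, and for 9.55% of all genes. The antioxidant response element was searched as TGACNNNGC. It was found for 6 of the 41, Psmb5, Psmb6, Psmc6, Psmd12, Psmd9 and Psme4, and for 14.0% of all genes. Psmd9 held both the first and the third motif, at separate positions. The Psmb9 window held none of the 3 sets of letters. Psmb9 lies beside Tap1, a subunit of the peptide transporter TAP, on the opposite strand of chromosome 17; their starts are 226 bases apart and their windows share 275 bases. Such matches describe letters and not bound sites.

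In Tfh cells, with values as deposited, most proteasome transcripts stood within 0.5 log2 units of their mean level in the cultured types, while Psmb9 was higher and the assembly chaperone Psmg1 was lower. Against the mean of Th1, Th2 and Th17, 3 of the 47 tested genes were called higher and 2 lower, where a call needed a limma adjusted p under 0.05 over all tested genes and a log2 difference of at least 1. Over all 11178 tested genes the called shares were 43.7% higher and 6.66% lower. The genes called higher were Psmb9, the activator Psme4 and Psme3ip1, and those called lower were Psmg1 and Psmc3ip. The median log2 difference of the 47 genes was 0.20, against 0.84 for all tested genes, and 30 of the 47 differed by less than 0.5. With the adjusted p alone and no minimum fold, 16 of the 47 were higher and 4 were lower, beside 59.1% and 12.5% of all tested genes.

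**Figure D1:**
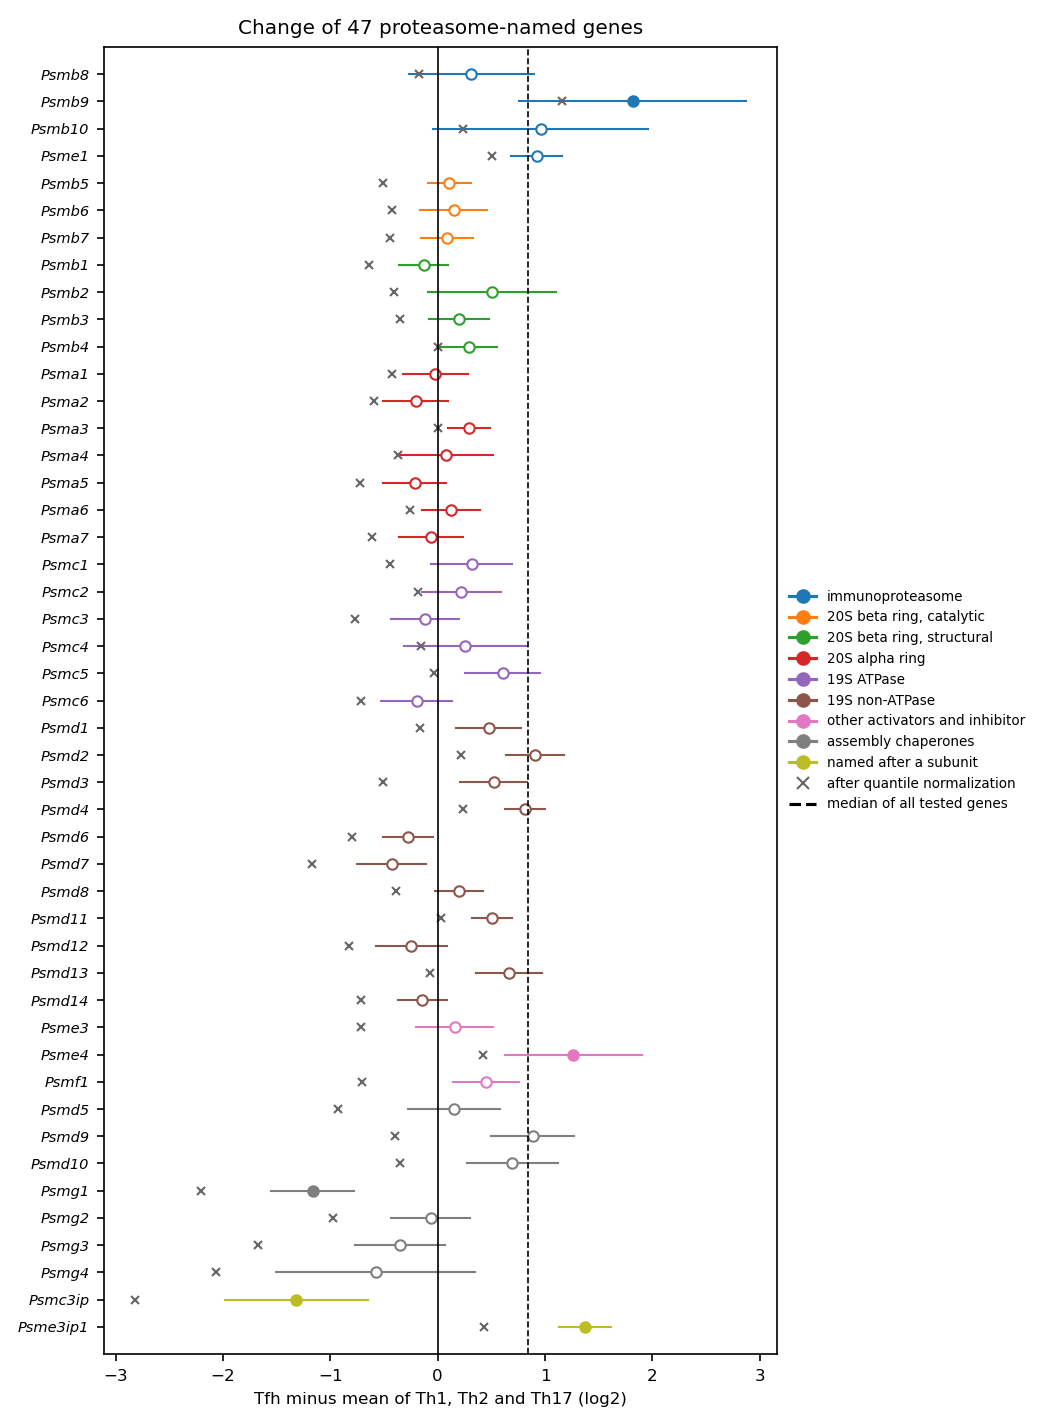
Log2 difference of Tfh minus the mean of Th1, Th2 and Th17 (x axis) for the 47 tested genes, coloured by role. Circles are limma estimates with 95% confidence intervals, filled where called, and crosses are estimates after quantile normalization over the 8 arrays; the dashed line is the median of all tested genes at 0.84, and most circles lie left of it, with Psmb9 at 1.82 and Psmc3ip at -1.32 at the extremes.

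Psmb9, the inducible subunit that replaces Psmb6, had the largest positive difference in Tfh of the 47 genes with the probe sets used. Its log2 level was 12.26 and 12.19 in Tfh, 10.62 and 11.54 in Th1, 9.56 and 10.32 in Th2, and 9.56 and 10.86 in Th17. Both Tfh arrays lay above all 6 cultured arrays, and the paired arrays of Th1 and of Th17 stood far apart. The difference was 1.82 ± 0.43 (SE, 2 Tfh and 6 cultured arrays; limma adjusted p = 0.0103). Relative to the median gene it was 0.98. The call ended when a single Tfh array was left out (1.78 with adjusted p = 0.0684 without Tfh replicate 1, 1.85 with adjusted p = 0.0616 without Tfh replicate 2). Psmb6 itself was at 12.36 and 12.34 in Tfh, 12.21 and 12.53 in Th1, 12.35 and 12.07 in Th2, and 11.94 and 12.08 in Th17. Tfh lay inside the range of the cultured arrays, with a difference of 0.15 ± 0.13 (SE; limma adjusted p = 0.323).

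Psmb10, which replaces Psmb7, was at 11.71 and 11.65 in Tfh, 10.95 and 11.30 in Th1, 9.93 and 10.47 in Th2, and 10.06 and 11.60 in Th17. The Tfh arrays were again the highest, but the second Th17 array came close to them. Against the cultured mean the difference was 0.96 ± 0.41 (SE) and was not called (limma adjusted p = 0.0774). Without Th17 replicate 2 it was 1.21 and was called (adjusted p = 0.00407). Relative to the median gene the difference over all arrays was 0.12. Psmb7 was at 12.57 and 12.67 in Tfh, 12.59 and 12.84 in Th1, 12.50 and 12.35 in Th2, and 12.44 and 12.48 in Th17, a difference of 0.09 ± 0.10 (SE; limma adjusted p = 0.455) with overlapping arrays.

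Psmb8, which replaces Psmb5, was at 12.88 and 12.84 in Tfh, 12.70 and 13.16 in Th1, 11.93 and 12.45 in Th2, and 12.20 and 12.84 in Th17. The Th1 arrays lay on both sides of Tfh, and the highest single value was in Th1. The difference of 0.31 ± 0.23 (SE) did not pass (limma adjusted p = 0.273), with a 95% confidence interval of -0.27 to 0.89. It was -0.53 relative to the median gene, and the sign turned to -0.07 with equal array medians and -0.17 after quantile normalization. Psmb5 was at 12.05 and 11.96 in Tfh, 12.09 and 12.02 in Th1, 11.93 and 11.77 in Th2, and 11.77 and 11.78 in Th17. It spanned 0.32 log2 units over the 8 arrays, and its difference was 0.11 ± 0.08 (SE; limma adjusted p = 0.268).

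Psme1, the alpha subunit of PA28, was at 13.52 and 13.40 in Tfh, 12.86 and 12.87 in Th1, 12.24 and 12.29 in Th2, and 12.35 and 12.62 in Th17. The groups followed each other without overlap between Tfh, Th1 and the other types. The difference from the cultured mean was 0.92 ± 0.09 (SE; limma adjusted p = 0.00036), which passed the test but not the minimum fold. It was 0.08 relative to the median gene, 0.53 with equal array medians and 0.51 after quantile normalization. The probe set annotated to both Psme2 and Psme2b was at 13.58 and 13.60 in Tfh, 13.11 and 13.38 in Th1, 12.53 and 12.45 in Th2, and 12.27 and 12.86 in Th17. It too was highest in both Tfh arrays, by 0.82 over the cultured mean, and no test is given for it.

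**Figure D2:**
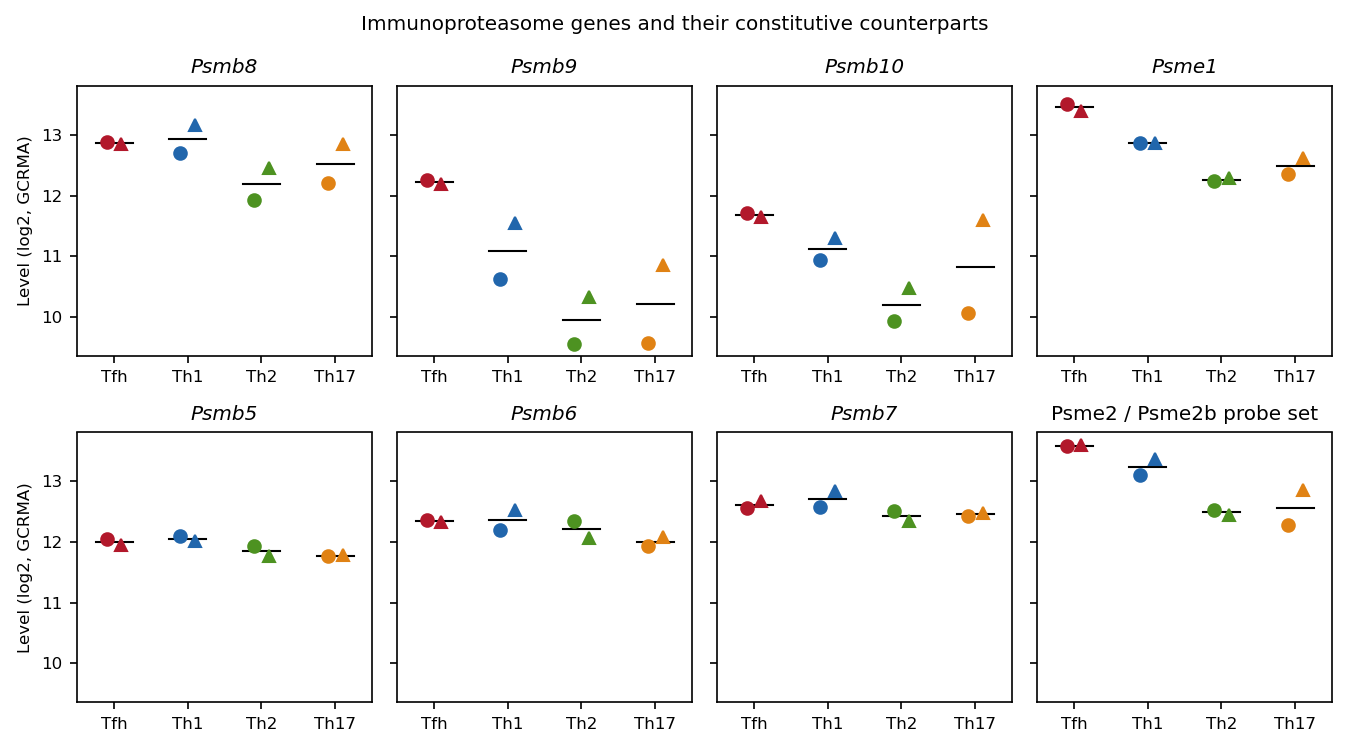
Log2 levels (y axis) of Psmb8, Psmb9, Psmb10 and Psme1 in the upper row, and of Psmb5, Psmb6, Psmb7 and the probe set shared by Psme2 and Psme2b in the lower row, by group. Circles are replicate 1, triangles replicate 2 and bars the mean of both arrays; Psmb9 ran from 9.56 to 12.26 while Psmb5 stayed between 11.77 and 12.09.

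The exchange pairs differed by unequal amounts between Tfh and the cultured mean. The inducible subunit's difference exceeded that of its constitutive counterpart by 1.67 for Psmb9 over Psmb6, by 0.87 for Psmb10 over Psmb7 and by 0.20 for Psmb8 over Psmb5. As these are differences of log2 differences within the same arrays, a shift common to a whole array cancels in them. An offset that varies with level does not cancel. Tfh replicate 1 and Th1 replicate 1 had medians of 3.46 and 3.04, 65th percentiles of 6.91 and 5.26, and 95th percentiles of 11.69 and 10.99. After quantile normalization Psmb9 and Psmb6 differed by 1.16 and -0.42, Psmb10 and Psmb7 by 0.23 and -0.45, and Psmb8 and Psmb5 by -0.17 and -0.51. No test was made of the exchange pairs. The mean of the 4 inducible genes minus the mean of the 41 others was 0.76 and 0.73 in Tfh, 0.16 and 0.42 in Th1, -0.78 and -0.16 in Th2 and -0.58 and 0.37 in Th17. Both Tfh arrays were above all cultured arrays, Th1 and Th17 overlapped, and the Th2 arrays were below those of Th1. The distance was 0.84 greater in Tfh than in the cultured mean, and the pooled SD between replicates was 0.41. It was 0.80 when the shared Psme2 and Psme2b probe set was added to the inducible genes.

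**Figure D3:**
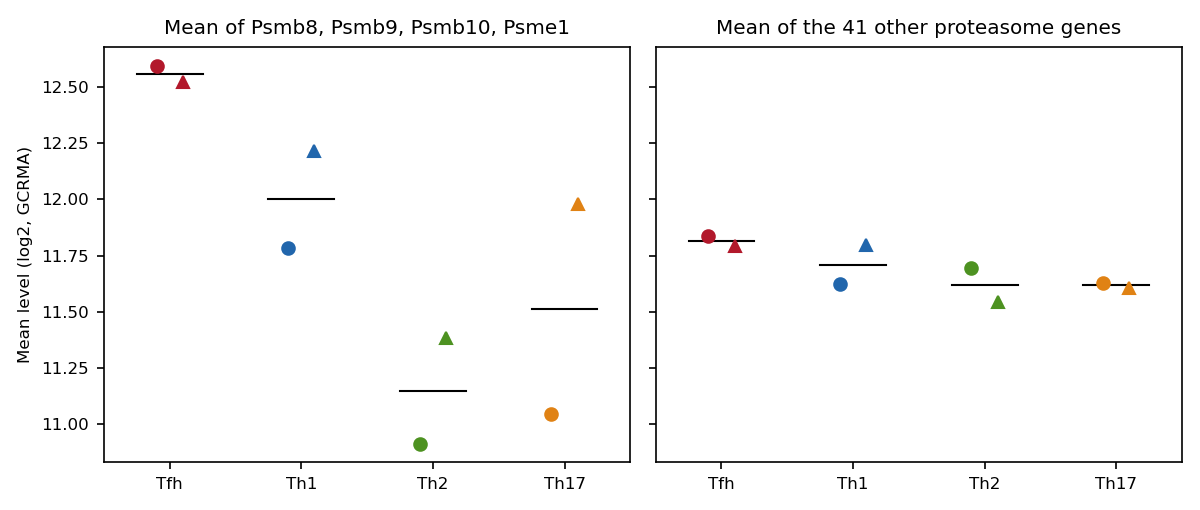
Mean log2 level per array (y axis) of the 4 inducible genes on the left and of the 41 other proteasome genes on the right, by group. Circles are replicate 1, triangles replicate 2 and bars the mean of both arrays; the inducible mean ran from 10.9 in a Th2 array to 12.6 in a Tfh array, and the mean of the others from 11.5 to 11.8.

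With the probe sets used, of the 7 tested alpha ring genes 0 were called by limma in Tfh against the cultured mean (1 higher and 0 lower at an unadjusted p under 0.05), and their differences ran from -0.21 to 0.29. The gene with the smallest adjusted p among them was Psma3, at 14.09 and 14.05 in Tfh, 13.72 and 13.83 in Th1, 13.95 and 13.78 in Th2, and 13.73 and 13.67 in Th17. Both Tfh arrays were above the rest, by 0.29 ± 0.08 (SE; limma adjusted p = 0.0184), less than a log2 unit. The Psma3 difference was -0.10 with equal array medians and 0.01 after quantile normalization. Among the 4 structural beta genes, Psmb1, Psmb2, Psmb3 and Psmb4, 0 were called (1 higher and 0 lower at an unadjusted p under 0.05), and differences ran from -0.13 to 0.50. The share of all tested genes at an unadjusted p under 0.05 was not counted in any comparison. At the stricter limma adjusted p under 0.05 without a minimum fold, 59.1% were higher and 12.5% lower in Tfh against the cultured mean.

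The 19S cap, which recognises and unfolds substrates, spread more widely. Among its 6 ATPase genes 0 were called by limma (1 higher and 0 lower at an unadjusted p under 0.05), and differences ran from -0.19 to 0.61. Psmc5, the ATPase with the smallest adjusted p, was at 12.07 and 11.92 in Tfh, 11.39 and 11.38 in Th1, 11.37 and 11.21 in Th2, and 11.73 and 11.26 in Th17. Its difference was 0.61 ± 0.14 (SE; limma adjusted p = 0.00975), under the minimum fold, with Tfh above all cultured arrays. With equal array medians the Psmc5 difference was 0.22, and after quantile normalization it was -0.03. Among the 11 non-ATPase genes 0 were called, and differences ran from -0.43 to 0.91. At an unadjusted p under 0.05, for which no background was counted, 6 of the 11 were higher and 2 lower. Psmd2, a scaffold subunit at the base of the cap, was at 11.88 and 11.74 in Tfh, 11.00 and 10.87 in Th1, 10.85 and 10.72 in Th2, and 11.12 and 10.85 in Th17. Its difference was the largest of these, 0.91 ± 0.11 (SE; limma adjusted p = 0.000701). The lowest was that of Psmd7, a partner of the deubiquitinase Psmd14 in the lid, at 11.38 and 11.34 in Tfh, 11.58 and 11.99 in Th1, 11.81 and 11.63 in Th2, and 11.87 and 11.86 in Th17; its difference was -0.43 ± 0.13 (SE; limma adjusted p = 0.0257). With equal array medians Psmd2 was at 0.52 and Psmd7 at -0.82, and after quantile normalization at 0.22 and -1.17. Psmd7 was called lower after quantile normalization (limma adjusted p = 0.000514). Other probe sets of Psmd7 differed by 0.63 and -0.47. Psmd7 was named after its values were seen.

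Of the other caps and the inhibitor, Psme4 was called. Psme4 encodes PA200, a cap found in the nucleus, and was at 11.23 and 11.29 in Tfh, 10.33 and 9.35 in Th1, 10.10 and 9.88 in Th2, and 10.24 and 10.07 in Th17. All cultured arrays lay below both Tfh arrays, with the lowest in Th1, and the difference was 1.26 ± 0.26 (SE; limma adjusted p = 0.00578). Relative to the median gene it was 0.42, and it was not called after quantile normalization or a shift to equal array medians. Psme3, the nuclear PA28 gamma cap, differed by 0.16 ± 0.15 (SE; limma adjusted p = 0.359), and Psmf1, which encodes the inhibitor PI31, by 0.45 ± 0.12 (SE; limma adjusted p = 0.0184). The Psmf1 difference was 0.06 with equal array medians and -0.71 after quantile normalization. Psme3 and Psmf1 were named after their values were seen.

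The assembly chaperones, which put the rings and the cap base together, went in both directions. Psmg1, which pairs with Psmg2 to build the alpha ring, was at 9.83 and 9.84 in Tfh, 10.86 and 11.41 in Th1, 11.07 and 10.98 in Th2, and 10.79 and 10.89 in Th17. Every cultured array was above both Tfh arrays, and the fall was called at -1.17 ± 0.16 (SE; limma adjusted p = 0.00102). Its partner Psmg2 differed by -0.06 ± 0.15 (SE; limma adjusted p = 0.71) as deposited. Psmg3 and Psmg4, which also form a pair, differed by -0.35 and -0.58 and were not called as deposited (limma adjusted p = 0.109 and 0.211). After quantile normalization both were called lower, at -1.67 and -2.06 (adjusted p = 0.000486 and 0.00424). The base chaperones Psmd9 and Psmd10 had positive differences of 0.88 and 0.70 under the minimum fold (limma adjusted p = 0.00326 and 0.0123), which turned to negative values after quantile normalization (-0.40 and -0.35). The third chaperone of the base, Psmd5, differed by 0.15 (limma adjusted p = 0.46). All chaperones except Psmg1 were named after their values were seen.

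Of the genes named after a subunit, Psmc3ip, a partner of meiotic recombinases, was at 7.43 and 7.36 in Tfh, 8.50 and 9.40 in Th1, 8.88 and 8.42 in Th2, and 8.62 and 8.46 in Th17. It was called lower in all comparisons with Tfh, at -1.32 ± 0.27 (SE; limma adjusted p = 0.00599) against the cultured mean, without overlap of arrays. Psme3ip1, which binds Psme3, was at 10.92 and 10.87 in Tfh, 9.47 and 9.47 in Th1, 9.46 and 9.55 in Th2, and 9.49 and 9.67 in Th17. It was called higher at 1.38 ± 0.10 (SE; limma adjusted p = 9.2e-05) and was not called after quantile normalization or a shift to equal array medians.

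Single cultured types gave counts near these. The comparisons share the Tfh arrays. Against Th1, 2 genes were called higher and 2 lower by limma, where 42.8% and 6.16% of all tested genes were called; they were Psme4 (1.42) and Psme3ip1 (1.42) higher and Psmg1 (-1.30) and Psmc3ip (-1.55) lower. Psme4 was not called there without Th1 replicate 2 (0.93) or without Tfh replicate 2 (adjusted p = 0.0531). Against Th2, 6 were called higher and 2 lower, where 42.8% and 6.89% of all tested genes were called. The 6 were Psmb9 (2.29), Psmb10 (1.47), Psme3ip1 (1.39), Psme4 (1.27), Psme1 (1.20) and Psmd2 (1.02). Against Th17, 3 were called higher and 2 lower, where 41.8% and 6.17% of all tested genes were called, and the 3 were Psmb9 (2.02), Psme3ip1 (1.31) and Psme4 (1.10). Psmg1 (-1.19 against Th2) and Psmc3ip (-1.25 against Th2 and -1.15 against Th17) were the genes called lower in both. Several of these calls ended without a single array. Psme4 was not called against Th2 without either Tfh array or Th2 replicate 2 (adjusted p between 0.0623 and 0.0707), nor against Th17 without any one Tfh or Th17 array (0.0633 to 0.101). Psmc3ip was not called against Th2 without either Tfh array or Th2 replicate 1 (0.0727 to 0.0943), nor against Th17 without any one Tfh or Th17 array (0.0637 to 0.106). Psmd2 dropped under the minimum fold without Tfh replicate 1 (0.95) or Th2 replicate 2 (0.95), and Psmg1 against Th17 without Th17 replicate 2 (-0.95).

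Counts of called inducible genes ran from 0 against Th1 to 3 against Th2. Against Th1, 0 of the 4 were called by limma (1 higher and 0 lower at an unadjusted p under 0.05): Psmb9 differed by 1.15 ± 0.53 (SE; adjusted p = 0.101), Psme1 by 0.59 ± 0.12 (adjusted p = 0.00573, under the minimum fold), Psmb10 by 0.56 ± 0.50 (adjusted p = 0.361) and Psmb8 by -0.07 ± 0.29 (adjusted p = 0.843). Against Th2, 3 of the 4 were called, Psmb9 at 2.29 ± 0.53 (adjusted p = 0.0104), Psmb10 at 1.47 ± 0.50 (adjusted p = 0.0417) and Psme1 at 1.20 ± 0.12 (adjusted p = 0.00038). Psmb8 differed there by 0.67 ± 0.29 (adjusted p = 0.0856). Psmb10 lost this call without any one of the Tfh, Th1 or Th2 arrays. Without either Th1 array its difference stayed at 1.47, as Th1 enters this comparison only through the shared spread. Leaving out single Tfh or Th2 arrays gave differences from 1.20 to 1.74. Psmb9 lost the call without either Tfh array (2.25 and 2.32) or Th2 replicate 1 (1.90). Scaling also ended calls against Th2: Psmb10 was at 0.72 (adjusted p = 0.242) after quantile normalization and 1.10 (adjusted p = 0.105) with equal array medians, and Psme1 at 0.77 and 0.82, under the minimum fold. Against Th17, Psmb9 was called at 2.02 ± 0.53 (adjusted p = 0.0173), but not without either Tfh array or without Th17 replicate 1 (1.37, adjusted p = 0.066), and not after quantile normalization (1.34, adjusted p = 0.0659). Psme1 differed from Th17 by 0.97 ± 0.12 (adjusted p = 0.000899) and passed the minimum fold without Tfh replicate 2 (1.03) or Th17 replicate 2 (1.11). Whether the difference from Th1 is smaller than that from Th2 is the comparison of Th1 with Th2 itself, which follows.

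Among the cultured types 0 of the 47 genes were called by limma in any comparison. Th1, cultured without a listed antibody to interferon gamma, was set against the mean of Th2 and Th17. There 0.206% of all tested genes were called higher and 0.403% lower. The called shares were 0.349% and 0.895% for Th1 against Th2, and 0.0626% and 0.0805% for Th1 against Th17. They were 0.483% and 0.188% for Th2 against Th17. A looser threshold was an unadjusted limma p under 0.05 without a minimum fold. By it, 4 proteasome genes were higher and 0 lower in Th1 against the mean of Th2 and Th17. These counts were 3 and 0 for Th1 against Th2, 2 and 0 for Th1 against Th17 and 0 and 0 for Th2 against Th17. The share of all tested genes at the looser threshold was not counted, so the called shares are no background for these counts.

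All 4 inducible genes nonetheless had positive differences in Th1 against the mean of Th2 and Th17, none of them called. The difference was 1.01 ± 0.46 (SE; limma adjusted p = 0.447) for Psmb9, 0.61 ± 0.43 (adjusted p = 0.628) for Psmb10, 0.57 ± 0.25 (adjusted p = 0.424) for Psmb8 and 0.49 ± 0.10 (adjusted p = 0.133) for Psme1. The probe set of Psme2 and Psme2b differed by 0.72. Only Psme1, of the 4, had both Th1 arrays above all Th2 and Th17 arrays, since the second Th17 array stood high for Psmb8, Psmb9 and Psmb10. Against Th2 alone, both Th1 arrays were above both Th2 arrays for all 4 genes, by 1.14 for Psmb9, 0.92 for Psmb10, 0.74 for Psmb8 and 0.60 for Psme1 (adjusted p between 0.0895 and 0.453). The constitutive genes Psmb5, Psmb6 and Psmb7 differed by 0.24, 0.26 and 0.27 in Th1 against the mean of Th2 and Th17 (adjusted p = 0.339, 0.508 and 0.379). Over the 41 other genes these differences ran from -0.23 to 0.45 with a median of 0.09, beside a median of 0.59 for the inducible genes and 0.01 for all tested genes.

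Over the cultured arrays the inducible genes had wider ranges than most other proteasome genes. The range over the 6 cultured arrays had a median of 1.45 log2 units for the 4 inducible genes, 0.42 for the 41 others and 0.80 for all tested genes. Low-level genes vary more on arrays, so the same ranges were taken at a mean of at least 10: 1.45 for the 4 inducible genes, 0.40 for 34 other proteasome genes and 0.69 for 2432 tested genes. At that level 3 of the 4 inducible genes, 0 of the 34 others and 663 of the 2432 had a range over 1. Of all 41 others, Psmg4 alone exceeded 1 over the cultured arrays (1.36), with its high value in Th1 replicate 2. Much of the inducible range lay between arrays of the same type: the Th17 arrays differed by 1.29 for Psmb9, 1.54 for Psmb10 and 0.64 for Psmb8, and the Th1 arrays by 0.92 for Psmb9. In each cultured type replicate 2 was above replicate 1 for all 4 inducible genes. The cause of this shared direction was not tested.

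Some MHC class I processing genes ordered the arrays much as Psmb9 did, and others did not. For Psmb9 the order from high to low was Tfh replicate 1, Tfh replicate 2, Th1 replicate 2, Th17 replicate 2, Th1 replicate 1, Th2 replicate 2, Th17 replicate 1 and Th2 replicate 1. Tap1, the neighbour of Psmb9, gave the same order except that Th17 replicate 2 came before Th1 replicate 2. The order for Nlrc5, the activator of MHC class I genes, was that of Tap1. Of the 12 MHC class I genes listed, 8 had both Tfh arrays highest, and 4 of these, Tap1, Tap2, Tapbp and Nlrc5, had Th17 replicate 2 next. H2-K1 and H2-D1 had both Th1 arrays next, and B2m, Erap1, Calr and Pdia3 did not have both Tfh arrays highest. The share of all tested genes with both Tfh arrays highest was not counted. As the median tested gene was 0.84 higher in Tfh and 43.7% were called higher, this count is not read as particular to the list. Tap1 was at 12.68 and 12.62 in Tfh, 10.00 and 10.34 in Th1, 8.91 and 9.76 in Th2, and 9.36 and 10.94 in Th17. Nlrc5 was at 12.59 and 12.58 in Tfh, 9.24 and 9.41 in Th1, 7.79 and 8.90 in Th2, and 8.30 and 10.30 in Th17. Ifng, which encodes interferon gamma, had another order: it was at 11.34 and 11.25 in Tfh, 15.39 and 15.07 in Th1, 14.12 and 12.09 in Th2, and 13.30 and 10.72 in Th17. Th17 replicate 2 was the lowest array for Ifng and the highest Th17 array for all 4 inducible genes, and both Tfh arrays lay below all Th1 and Th2 arrays for Ifng.

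**Figure D4:**
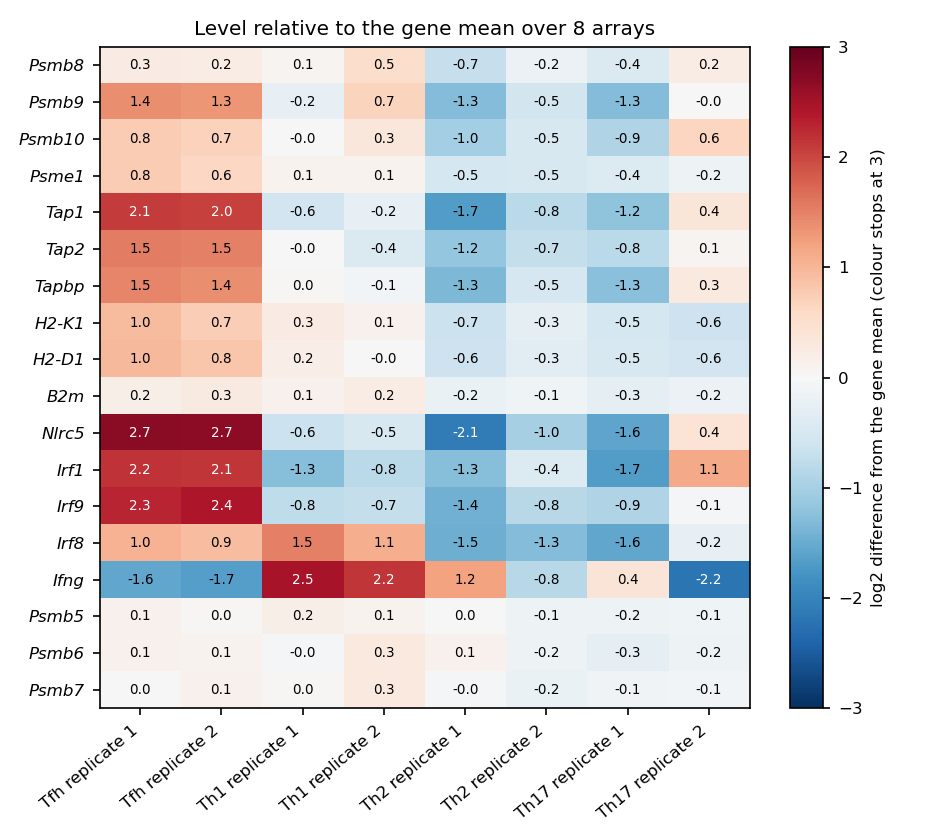
Log2 level minus the gene's mean over the 8 arrays, for the inducible proteasome genes, genes of MHC class I processing and interferon signalling, and Psmb5, Psmb6 and Psmb7 (rows), by array (columns, with Tfh on the left). Red is above and blue below the gene's mean; Psmb9 ran from 1.4 in a Tfh array to -1.3 in arrays of Th2 and Th17, whereas Psmb5 stayed between -0.2 and 0.2.

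In the list of 12 MHC class I antigen processing genes, 7 were called higher and 0 lower in Tfh against the cultured mean, with a median difference of 1.17 beside 0.84 for all tested genes, of which 43.7% were called higher. With equal array medians 4 were called higher, beside 32.7% of all tested genes, and after quantile normalization 5, beside 15.8%. Tap1, Tap2, Tapbp and Nlrc5 were called higher under all 3 scalings, as were 1744 genes in all. The genes called as deposited included Tap1 (2.77 ± 0.44, SE; limma adjusted p = 0.00214), Tap2 (2.03 ± 0.27; adjusted p = 0.00101), the class I heavy chains H2-K1 (1.14 ± 0.12; adjusted p = 0.000441) and H2-D1 (1.20 ± 0.11; adjusted p = 0.000241), and Nlrc5 (3.59 ± 0.56; adjusted p = 0.00182). In Th1 against the mean of Th2 and Th17, 0 of the 12 were called by limma (3 higher and 1 lower at an unadjusted p under 0.05). Of 10 tested genes of interferon gamma signalling, 9 were called higher and 0 lower in Tfh as deposited, 8 and 1 with equal medians and 5 and 1 after quantile normalization, where the shares of all tested genes called higher were those just given. Ifngr1, Jak1, Irf1, Irf2 and Irf9 were called higher under all 3 scalings. As deposited the differences were 2.71 ± 0.41 (adjusted p = 0.00169) for Ifngr1 and 2.87 ± 0.72 (adjusted p = 0.0132) for Irf1. The others were the signalling kinase Jak1 (2.27 ± 0.22; adjusted p = 0.000291) and the transcription factors Irf2 (2.72 ± 0.23; adjusted p = 0.000163) and Irf9 (3.13 ± 0.26; adjusted p = 0.000168). Ifng itself differed by -2.15 ± 0.79 (adjusted p = 0.0507) and was the gene called lower under the other scalings. In Th1 against the mean of Th2 and Th17 the receptor subunit Ifngr2 was called lower (-2.91; adjusted p = 0.0435) and 0 were called higher. Ifngr2 was at 2.23 and 3.55 in Th1, on both sides of the filter of 3.13, so the size of its difference is uncertain.

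Of 14 tested regulators and partners of the proteasome, 5 were called higher and 0 lower in Tfh, beside 43.7% higher of all tested genes. Their median difference was 0.53, beside 0.84; with equal medians 3 were called higher, and after quantile normalization 0 were called and the median turned to -0.05. The transcription factor Nfe2l1, which drives proteasome genes when activity is short, was at 8.93 and 8.83 in Tfh, 8.04 and 7.48 in Th1, 7.73 and 7.36 in Th2, and 7.97 and 6.98 in Th17. Its difference was 1.29 ± 0.31 (SE; limma adjusted p = 0.0115), with no overlap of arrays. Nfe2l2, the factor of the antioxidant response, differed by 1.59 ± 0.29 (adjusted p = 0.00373), Akirin2, which takes proteasomes into the nucleus, by 1.55 ± 0.19 (adjusted p = 0.000671), and the ubiquitin shuttles Ubqln2 and Ubqln4 by 1.38 ± 0.14 (adjusted p = 0.000377) and 2.12 ± 0.25 (adjusted p = 0.000631). The maturation factor Pomp differed by 0.07 ± 0.11 (adjusted p = 0.556), and Sem1, a small lid subunit outside the naming rule, by -0.40 ± 0.10 (adjusted p = 0.0136), under the minimum fold. Of the genes for ubiquitin and its activation 3 were measured above the filter. Ube2l6, the conjugating enzyme of the ubiquitin-like ISG15, passed only through Tfh, at 3.99 and 3.98, with all cultured arrays below the filter of 3.13, so no test is given for it. Uba6, which activates ubiquitin, and Ube2d3, a conjugating enzyme, differed by 0.53 and -0.11 and were not called (adjusted p = 0.0346 and 0.279). In Th1 against the mean of Th2 and Th17, 0 of the 14 and 0 of the 3 were called by limma (2 and 0 higher, 0 lower, at an unadjusted p under 0.05). Tap1, Ifng, Nfe2l1, Pomp, Sem1, Uba6 and Ube2d3 were named after their values were seen.

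The scaling of the arrays decided the sign for many of the constitutive genes. Of the 41 other proteasome genes, 26 had a positive difference in Tfh against the cultured mean as deposited, 12 after arrays were shifted to a common median and 6 after quantile normalization, and their median was 0.15, -0.23 and -0.44. The inducible median stayed positive at 0.94, 0.55 and 0.37. As the sign changed with the scaling, no direction is given for the constitutive proteasome as a whole between Tfh and the cultured types. Psmb9 was called higher and Psmg1 and Psmc3ip were called lower under all 3 scalings in this comparison. Over all genes, 1744 were called higher and 741 lower under all 3, beside 11178 tested as deposited. Such calls are therefore not read as particular to proteasome genes. In Th1 against the mean of Th2 and Th17 the median of the inducible genes was 0.59, 0.59 and 0.54 under the same scalings.

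Other probe sets of the same genes gave a second view. Of 54 probe sets that were not used, 45 were above the filter, over 24 genes. Compared with the used set of their gene, 15 had a difference between Tfh and the cultured mean that was more than 1 log2 unit higher, and 4 more than 1 lower. The other sets of Psme4 differed by -0.05, 1.03, 2.57, 3.35 and 3.65, beside 1.26 for the used set, and those of Psmd11 from -2.08 to 1.74, beside 0.51. Unused sets of the alpha ring genes Psma1, Psma3 and Psma6 reached 2.23, 3.01 and 2.86. With all sets of a gene averaged, these 3 genes were called higher in Tfh against the cultured mean (1.12, 1.65 and 1.48), and Psme4 reached 1.97. A second set of Psme3 differed by 1.43, beside 0.16. Other sets of Psmf1 differed by 1.43 and 1.39, beside 0.45. Weaker sets of Psmg3 and Psmd9, with means of 4.08 and 4.56, differed by 1.12, beside -0.35, and by 2.80, beside 0.88. The second set of Psmc3ip gave -1.49, close to the -1.32 of the used one. A weaker set of Psmb8 differed by -0.81, beside 0.31. Psmb9, Psmb10, Psme1, Psmg1 and Psme3ip1 had a single set.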

How the data were processed

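The authors deposited log2 values made with GCRMA, per the submitters' processing notes; GCRMA corrects background, normalizes and summarizes each of 45101 probe sets. Which version was used, and which arrays were normalized together, is not given in the sources used here. No further scaling was applied to the deposited log2 values. Probe sets were named through the platform annotation: 34945 had 1 symbol, 932 several and 9160 none, and 64 were controls. A gene was tested where at least 2 arrays exceeded 3.13, the 50th percentile over all values (11178 genes).

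Limma 3.58.1 in R 4.3.3 was fitted to the 8 arrays with a coefficient for each group and a variance trend on level, with 4 residual and 1.78 prior degrees of freedom. Tests were two-sided with Benjamini-Hochberg adjustment over all tested genes, and the procedure was tested on simulated data. There were 8 comparisons: Tfh against the cultured mean and each cultured type, Th1 against the mean of Th2 and Th17, and each cultured pair. Named genes were the inducible genes and their counterparts, called genes by size of change, and the gene with the smallest adjusted p in a role class without one. The genes, lists and rules were chosen with earlier results of these data known. Alternatives were other scalings, filters, probe set choices and variance models, no minimum fold, leaving out each array, and the replicate number as a block. The number of arrays limits the precision. Promoters came from RefSeq (GRCm38.p6), and figures from matplotlib 3.10.9 (Python 3.11.15).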

Additional observations from a re-analysis of the deposited data

How the results depend on the processing

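Counts of called proteasome genes in comparisons with Tfh depended on scaling, on the probe set chosen and on the minimum fold, and those between cultured types were 0 throughout. For Tfh against the cultured mean (3 higher, 2 lower), quantile normalization gave 1 and 5, equal array medians 1 higher, the mean over all probe sets of a gene 7 higher, and the adjusted p alone 16 and 4. For Tfh against Th1 (2 and 2), quantile normalization gave 0 and 7, the probe set mean 5 higher and the adjusted p alone 12 higher. For Tfh against Th2 (6 and 2), quantile normalization gave 1 and 5, equal medians 2 higher, the probe set mean 10 higher and the adjusted p alone 14 higher. For Tfh against Th17 (3 and 2), quantile normalization gave 0 and 5, equal medians 1 higher, the probe set mean 7 higher and the adjusted p alone 14 and 4. Over all tested genes in these comparisons, quantile normalization called 14.1% to 16.3% higher and 20.6% to 22.3% lower, equal medians 30% to 32.9% higher, the probe set mean 41.1% to 42.6% higher, and the adjusted p alone 54.1% to 59.1% higher and 10.4% to 12.5% lower. The cause was not tested.

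Without single arrays the counts were 1 to 2 higher against Th1, 2 to 6 higher and 1 to 2 lower against Th2, and 1 to 4 higher and 0 to 2 lower against Th17. The inducible minus other distance ranged from 0.37 to 1.33 for Tfh against Th17, from -0.0813 to 0.88 for Th1 against Th17 and from -0.84 to 0.12 for Th2 against Th17; each extreme left out a Th17 array. Adding the probe set of Psme2 and Psme2b, an alternative chosen after seeing the data, moved no distance by more than the replicate SD.

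With the replicate number as a block, Psmb9 became called in Tfh against Th1 (1.15, adjusted p = 0.0309), and no other call of a named gene changed. The labels do not say whether arrays of the same number belong together. Deviations of same-numbered arrays correlated by -0.0018 to 0.268, and under 0.1 in 4 of 6 pairs of groups. The remaining pairs were Th1 with Th17 (0.255) and Th2 with Th17 (0.268). Of the results for single named genes, 1210 kept their side of the threshold, 54 lost a call and 11 gained one over all alternatives, and 0 changed direction while called. Most of the 1210 were results not called as deposited, among them all those between cultured types. They are therefore no measure of how often a call was kept.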
